A study of Mus musculus with 8 samples.

Results

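The transcriptional response of Stim1/2-deficient Treg cells to T cell receptor stimulation was measured in 4 RNA sequencing libraries of a series of 8. 2 libraries were made from cells stimulated for 16 h with plate-bound anti-CD3/CD28 antibodies at 1 µg/ml, and 2 from unstimulated cells. They were chosen by their labels, and the response was described across the 15419 of 52459 listed genes that had a mean of at least 10 normalized counts over the 8 libraries. The cells were CD4+CD25hi Treg cells of C57BL/6 mice, sorted from pooled spleens and lymph nodes of female mice that were heterozygous for the Foxp3-YFPcre allele. Cre is driven by the Foxp3 promoter on the X chromosome, so these females held both kinds of Treg cells. The females were Stim1 fl/fl and Stim2 fl/fl, so both kinds carry the floxed alleles of both genes. YFPcre+ cells express Cre from Foxp3-YFPcre and are called DKO in the labels. YFPcre- cells were called WT, and their 2 unstimulated and 2 stimulated libraries were used for comparison. Each library was a pool of mice, so p-values measure the spread between pools. That spread was estimated over the 4 groups together, WT libraries included. All unstimulated libraries were sequenced in lane 4 and all stimulated libraries in lane 1, so lane and stimulation cannot be told apart. The labels do not say that unstimulated cells were kept in culture, so 16 h of culture and the antibodies cannot be told apart either.

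T cell receptor signals release Ca2+ from the endoplasmic reticulum (ER). STIM1 and STIM2 sense the emptied store and open ORAI channels in the plasma membrane, and the Ca2+ that enters activates calcineurin and NFAT, whereas NF-κB and MAPK signals can also arise by routes that do not need store-operated entry. In activated T cells, quiescence factors are switched off, cytokine and costimulatory receptor genes are switched on, and the cells grow by making ribosomes, proteasomes and mitochondria.

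Levels are normalized counts, the authors' reads per gene after division by each library's size factor. In the 4 DKO-labelled libraries 12547718 to 15738444 reads fell on genes, and a single read was worth 0.794 to 1.34 normalized counts. Fold changes are from limma on log2(normalized count + 1), a scale that understates the change of low genes. A gene was called when its Benjamini-Hochberg adjusted p was under 0.05 and its change was over 1.5-fold. Values are given in the order unstimulated replicate 1, unstimulated replicate 2, stimulated replicate 1 and stimulated replicate 2.

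The targeted genes did not separate the DKO label from WT. Stim1 had 1538, 1868, 552 and 642 normalized counts in the DKO-labelled libraries, against 1139 and 1377 in unstimulated and 645 and 673 in stimulated WT libraries. Both stimulated libraries lay below both unstimulated ones in either genotype, and Stim1 fell by 1.51 on the log2 scale in the DKO-labelled cells (standard error [SE] 0.20, limma adjusted p = 0.00109). The Stim2 level was 904, 744, 620.2 and 696 normalized counts, a log2 fold change of -0.32 that was not called (limma adjusted p = 0.264). Counts summed over a gene do not show whether 1 exon was deleted, so the loss of STIM proteins could not be checked in these values, and the libraries are called DKO-labelled. The paper itself reports loss of both transcripts by RT-PCR in Treg cells of male mice. It also reports that YFP+ Treg cells of heterozygous females had no store-operated Ca2+ entry, unlike their YFP- cells. Of the 5 channel genes, 1 was called higher and 2 lower. Orai2 fell (564, 407, 216 and 244 normalized counts, adjusted p = 0.0131), although its call was lost without stimulated replicate 1. Orai3 rose (81.8, 45.4, 159.6 and 134 normalized counts, adjusted p = 0.0353), and its call was lost without any 1 of 3 DKO-labelled libraries, unstimulated replicate 2 or either stimulated replicate. Orai1, which forms the pore of the channel, had 238, 483, 401 and 340.2 normalized counts and was not called.

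Defining markers of Treg cells were present in all 4 libraries. Foxp3, the lineage-defining factor, had 4947, 4258, 4474 and 7253 normalized counts, and Ikzf2, which encodes Helios, had 8398, 9233, 9692 and 13079. Neither was called (adjusted p = 0.393 and 0.19). Cd4 fell from 10363 and 7005 to 4776 and 4496 normalized counts (adjusted p = 0.0131), a call that was lost without stimulated replicate 2, and Cd8a had 147, 65.4, 315 and 91.2.

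RNA of other cell types was uneven between the libraries. The summed level of the listed macrophage and myeloid markers, tested or not, was 16358 normalized counts in unstimulated replicate 1 and 2635 in unstimulated replicate 2. It was 968 and 491 in the stimulated libraries and 1073 to 1468 in WT libraries. B cell markers summed to 30818, 8191, 11836 and 3873 normalized counts, and CD8 T and NK cell markers to 1719, 498, 2281 and 569. Neutrophil and erythroid markers summed to 1486, 637, 975 and 243. Within each condition, replicate 1 held more B cell, CD8 T and NK, and myeloid RNA than replicate 2. Of the macrophage markers, 15 of 22 tested were called lower, with a median log2 fold change of -4.76 (-4.36 with genes absent from both stimulated libraries taken at 3 reads). Without unstimulated replicate 1 the count was 11 and the median -3.46. The defining markers C1qa, C1qb, C6 and Mrc1 were at 0 in both stimulated libraries. C1qa was also at 0 in the 4 WT libraries. Fewer macrophages and less RNA per macrophage cannot be told apart in bulk RNA. Of 20 B cell markers, the complement receptor gene Cr2 was called lower, and 6 were without stimulated replicate 1. Of 8 neutrophil and erythroid markers, the globin gene Hbb-bs was called lower (3 without stimulated replicate 1), and of 10 CD8 T and NK cell markers limma called 0 and DESeq2 1.

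**Figure D1:**
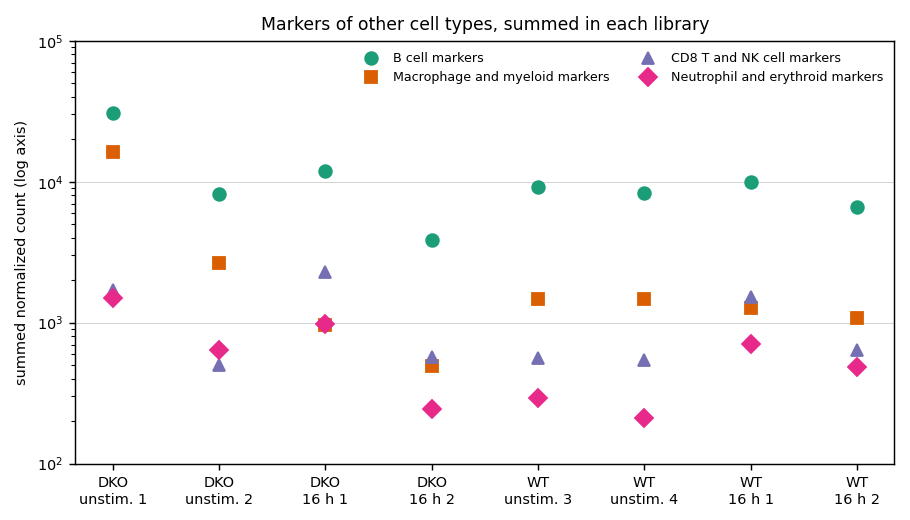
Summed normalized counts (log axis) of B cell, macrophage and myeloid, CD8 T and NK cell, and neutrophil and erythroid markers in each of the 8 libraries; each point is 1 library. Unstimulated DKO-labelled replicate 1 holds the highest macrophage sum, 16358, and the highest B cell sum, 30818.

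In DKO-labelled cells 3852 genes differed between stimulated and unstimulated libraries, a contrast that cannot be told apart from lane and 16 h of culture. 1997 genes were called higher, 13% of the 15419 tested, and 1855 were called lower, 12%. For every called gene, both stimulated libraries lay on the same side of both unstimulated libraries, which was the case for 30.8% (above) and 30.6% (below) of all genes. With the groups apart in this way, leaving out 1 library cannot change the sign of a called gene. The largest changes were decreases: 296 genes fell and 65 rose by more than 8-fold. The median log2 fold change of all genes was -0.03. It was 0.35 with the libraries rescaled to equal totals, where 3791 genes were called higher and 1077 lower, so that the lower genes made up 22.1% of the calls in place of 48.2%. Equal totals without mitochondrially encoded genes gave 31.1%, and equal upper quartiles gave 57.1%. Directions below are relative to the bulk of genes. Without unstimulated replicate 1, the library with the most macrophage and B cell RNA, 2125 genes were called higher and 2104 lower. These counts included 1678 (84.0%) of the genes called higher and 1456 (78.5%) of those called lower with all libraries, and no called gene changed sign. Without stimulated replicate 1, 1196 genes were called higher.

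**Figure D2:**
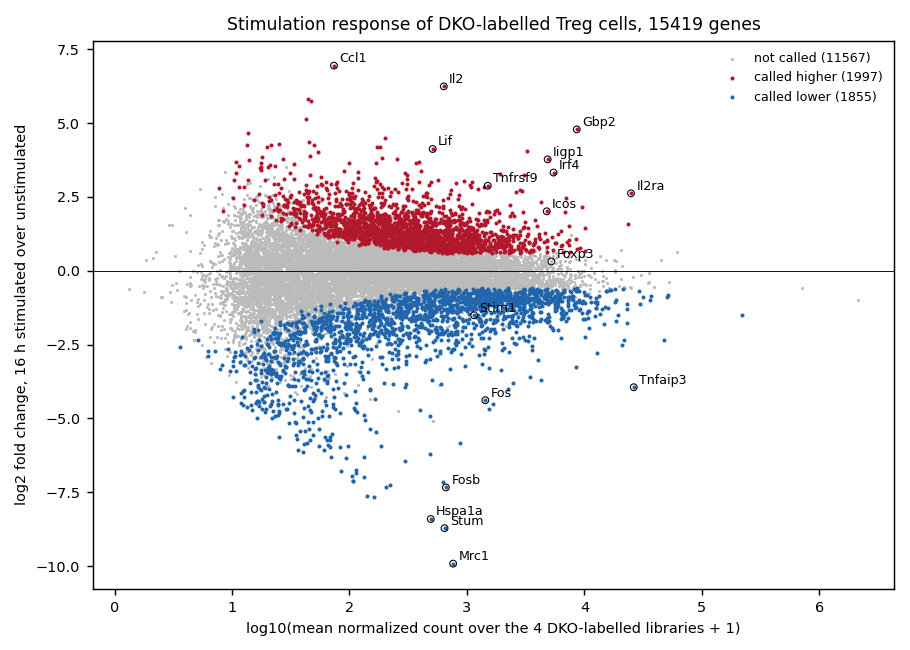
log2 fold change of 16 h stimulated over unstimulated DKO-labelled Treg cells (y axis) against the mean level, log10(mean normalized count over the 4 DKO-labelled libraries + 1) (x axis); each point is 1 of 15419 genes, red called higher (1997), blue called lower (1855), grey not called. The largest decreases are at and beyond those of Fosb, Hspa1a, Stum and Mrc1, and Gbp2, Il2 and Ccl1 are among the largest increases.

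Gbp2, Il2 and Ccl1 were among the largest increases. The 15 genes named here are those called higher, reaching 100 normalized counts, with the largest gap between their lowest stimulated and highest unstimulated library. Gbp2, a guanylate-binding protein gene, had 608, 574, 13422 and 19825 normalized counts, a 27.6-fold rise (log2 fold change 4.78, SE 0.21, limma adjusted p = 5.67e-06). Gbp5, of the same family, had 738, 453, 4920.1 and 6161, and Iigp1, an immunity-related GTPase gene, had 733, 599.7, 8867 and 9265. By the ranking that chose them, their stimulated libraries lay several times above the unstimulated ones. Ccl1, a chemokine gene, was at 0 in both unstimulated libraries and had 226 and 65.8 normalized counts after stimulation, at least 36.4-fold higher when 3 reads per library are taken as the floor. Il2 had 19.9, 4.01, 2248 and 266 normalized counts (75.7-fold, adjusted p = 0.00144). Lif, which encodes a cytokine of the IL-6 family, had 36.7, 76.1, 1193 and 736 (17.4-fold, adjusted p = 0.0003). The stimulated replicates of Ccl1 and Il2 were far apart. Their place above both unstimulated libraries follows from the ranking that chose these genes.

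The promoters of Gbp2, Gbp5 and Irgm1, another gene of the GBP and IRG families, are shown because they hold the letters GAAANNGAAA of the interferon-stimulated response element. Each gene's window of 250 bases before its RefSeq start was searched on both strands. The letters were found in 9 of 10 windows of GBP and IRG genes (90%) and in 2.78% of the 9882 windows of tested genes. Their share was 3.71% among windows of genes called higher and 2.69% among those of genes called lower. Sequences are from RefSeq on build GRCm38.p6 (chr3:142620413-142620662, plus strand for Gbp2, chr3:142496684-142496933, plus strand for Gbp5 and chr11:48871421-48871670, minus strand for Irgm1), 5′ to 3′ along the gene, with the match in capitals, which reads as the reverse complement of these letters where it lies on the opposite strand. Irgm1 holds 2 matches that overlap.
Gbp2: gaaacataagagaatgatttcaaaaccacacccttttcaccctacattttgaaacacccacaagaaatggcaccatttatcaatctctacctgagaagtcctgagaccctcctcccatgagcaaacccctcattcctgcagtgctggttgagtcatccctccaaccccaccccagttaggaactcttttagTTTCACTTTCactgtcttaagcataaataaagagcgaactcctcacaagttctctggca
Gbp5: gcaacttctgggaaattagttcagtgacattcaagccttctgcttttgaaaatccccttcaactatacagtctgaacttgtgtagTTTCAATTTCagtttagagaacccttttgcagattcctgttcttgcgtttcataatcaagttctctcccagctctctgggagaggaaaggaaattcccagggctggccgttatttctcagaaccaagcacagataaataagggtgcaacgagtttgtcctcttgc
Irgm1: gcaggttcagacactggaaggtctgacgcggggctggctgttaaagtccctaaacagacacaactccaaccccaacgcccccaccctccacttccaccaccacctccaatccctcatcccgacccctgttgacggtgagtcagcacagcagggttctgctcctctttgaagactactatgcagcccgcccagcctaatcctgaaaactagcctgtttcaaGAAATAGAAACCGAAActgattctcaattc
The promoters of Il2 and Ccl1 are shown because both hold the NFAT core letters GGAAAA. These letters were found in 11 of 27 windows of cytokine and chemokine genes (40.7%) and in 18.7% of those of tested genes. Their share was 19.9% among windows of genes called higher and 17.1% among those of genes called lower. Both promoters are given in the same way (chr3:37125955-37126204, minus strand for Il2 and chr11:82179813-82180062, minus strand for Ccl1), and the match reads TTTTCC on the opposite strand. A match describes the letters and is not a bound site.
Il2: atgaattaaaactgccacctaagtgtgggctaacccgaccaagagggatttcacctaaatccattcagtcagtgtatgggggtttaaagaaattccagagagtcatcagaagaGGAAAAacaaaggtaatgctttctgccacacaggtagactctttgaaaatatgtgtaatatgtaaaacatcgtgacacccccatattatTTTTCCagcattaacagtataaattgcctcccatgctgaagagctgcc
Ccl1: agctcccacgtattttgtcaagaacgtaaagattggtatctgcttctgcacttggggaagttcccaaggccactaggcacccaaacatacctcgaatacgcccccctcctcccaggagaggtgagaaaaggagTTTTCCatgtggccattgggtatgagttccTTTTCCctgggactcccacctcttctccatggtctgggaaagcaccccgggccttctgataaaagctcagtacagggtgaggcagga

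The other named genes were Kcnj15, a potassium channel gene (18.4-fold), Ly6a, which encodes the surface protein Sca-1 (16.7-fold), and Galk1, the galactokinase gene (12.5-fold). Dna2, a nuclease and helicase gene of DNA replication, rose 9.93-fold, and Timm10, a mitochondrial import chaperone gene, 8.83-fold. Ppa1, which encodes an inorganic pyrophosphatase, rose 8.01-fold, and Psmg3, a proteasome assembly gene, 7.97-fold. Nudt1, which encodes a hydrolase of oxidized nucleotides, rose 8.96-fold, and Olfr56 7.96-fold. Exons of Nudt1 overlap those of Ftsj2, and exons of Olfr56 overlap those of Ifi47, an immunity-related GTPase gene, so their reads may be shared. Each of these 9 calls was kept with any 1 DKO-labelled library left out.

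**Figure D3:**
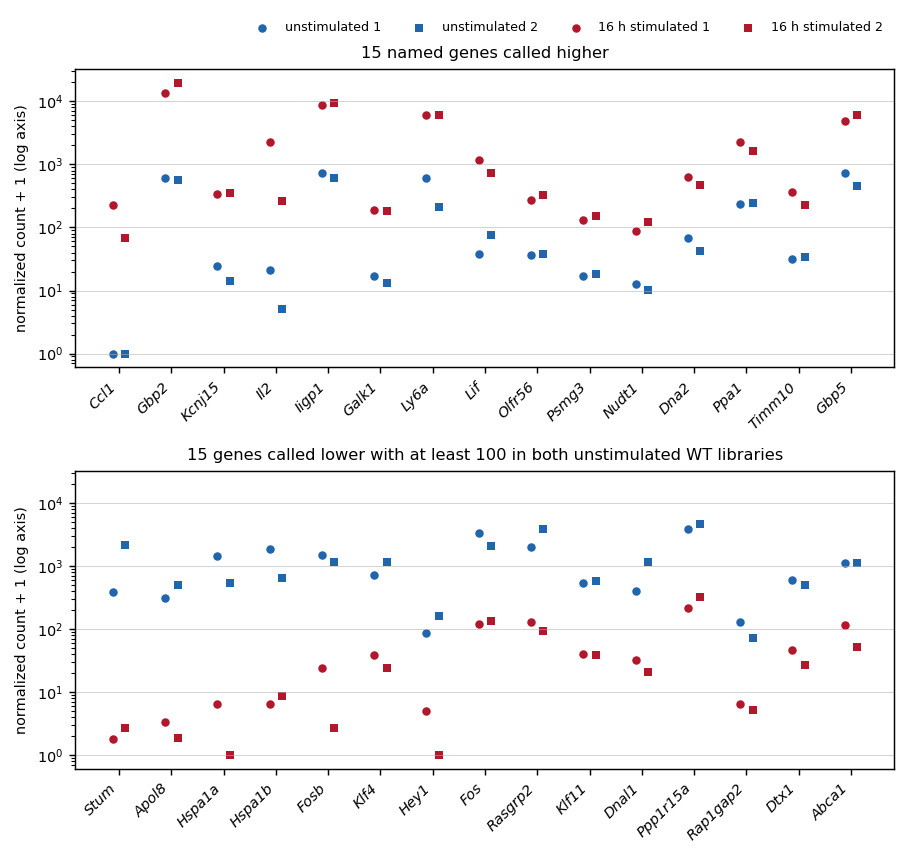
Normalized count + 1 (log axis) in the 4 DKO-labelled libraries, blue unstimulated and red stimulated, circles replicate 1 and squares replicate 2, for 15 genes called higher (top) and 15 called lower that had at least 100 normalized counts in both unstimulated WT libraries (bottom). In every gene shown both red points lie on the same side of both blue points, as in all called genes, with Gbp2 reaching 13422 and 19825 and Stum falling to 0.79 and 1.69.

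Among the decreases named by the same rule were 9 genes that were low in WT libraries and, like the macrophage markers, highest in unstimulated replicate 1. Mrc1, the mannose receptor gene, had 2702, 346, 0 and 0 normalized counts, at least 602-fold lower. C6 (at least 112-fold), C1qb (at least 83.1-fold), Igf1 (at least 126-fold), Itgad (at least 84.5-fold), Hpgd (at least 66.3-fold) and Gfra2 (at least 81.8-fold) were likewise at 0 after stimulation. Cd163 and Mertk kept 1 and 3 reads over both stimulated libraries. These 9 genes had at most 14.03 normalized counts in any WT library, and the part of macrophage RNA in their decrease was not tested. Among all genes called lower, 65 (3.50%) were at least 4-fold higher in unstimulated replicate 1 than in unstimulated replicate 2 and both unstimulated WT libraries. The share among all tested genes was not counted, so this share is not read as large or small. A gap of this size between replicates also widens the spread, which makes such genes harder to call.

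To describe decreases in genes that WT Treg cells also express, the ranking was repeated for genes with at least 100 normalized counts in both unstimulated WT libraries, a step chosen after values were seen. Stum had 390.1, 2184, 0.79 and 1.69 normalized counts, that is 2007 reads against 3, a ratio of 960.3 (95% counting interval 328.1 to 4661). Apol8, an apolipoprotein L gene, had 314, 499.5, 2.38 and 0.84 (ratio 241.5, interval 93.9 to 889). These intervals cover counting error alone. The AP-1 gene Fosb had 1462, 1158, 23 and 1.69 normalized counts (log2 fold change -7.34, adjusted p = 0.000367), and Fos had 3383, 2098, 119.9 and 133 (-4.39, adjusted p = 0.000163). The heat shock genes Hspa1a (1432, 528, 5.56 and 0) and Hspa1b (1838, 636, 5.56 and 7.6) fell as well. Both were higher in unstimulated replicate 1 than in unstimulated replicate 2 and the WT libraries. They are near-identical copies, so reads unique to either are few and their levels are uncertain. Klf4, a quiescence factor of lymphocytes, had 709.9, 1173, 38.1 and 22.8 normalized counts, a 29.9-fold decrease. By the ranking that chose these genes, the lowest unstimulated library of each lay far above the highest stimulated one.

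Rasgrp2, a Rap1 exchange factor gene, fell 25.5-fold, Dnal1, a dynein light chain gene, 26.4-fold, and Ppp1r15a, which encodes the eIF2α phosphatase subunit GADD34, 16.2-fold. Dtx1, a Notch pathway gene, fell 15.4-fold, Klf11 14.4-fold, Abca1, the cholesterol exporter gene, 14.3-fold, and Rap1gap2, which encodes a GTPase-activating protein of Rap1, 16.6-fold. Hey1, a Notch target, had 86, 162, 3.97 and 0 normalized counts. Exons of Rasgrp2 and Ppp1r15a overlap those of Gm14965 and Tulp2.

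The rest of the response was read through 37 gene lists with 814 different genes, chosen with earlier results of these data known. A list is described by how many of its tested members were called in each direction, to be read against 13% higher and 12% lower among all genes, and by its median log2 fold change, against -0.03. No list was tested against other genes. Counts with 1 DKO-labelled library left out are given where they moved by over 1.5 times, and counts of 3 or fewer calls moved by up to 3 genes unless stated. Leaving out 1 DKO-labelled library changed the sign of the median of 5 lists that hold no cell markers, those of effector factors, chemokine receptors, cytokine receptors, mitosis and type I interferon response.

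**Figure D4:**
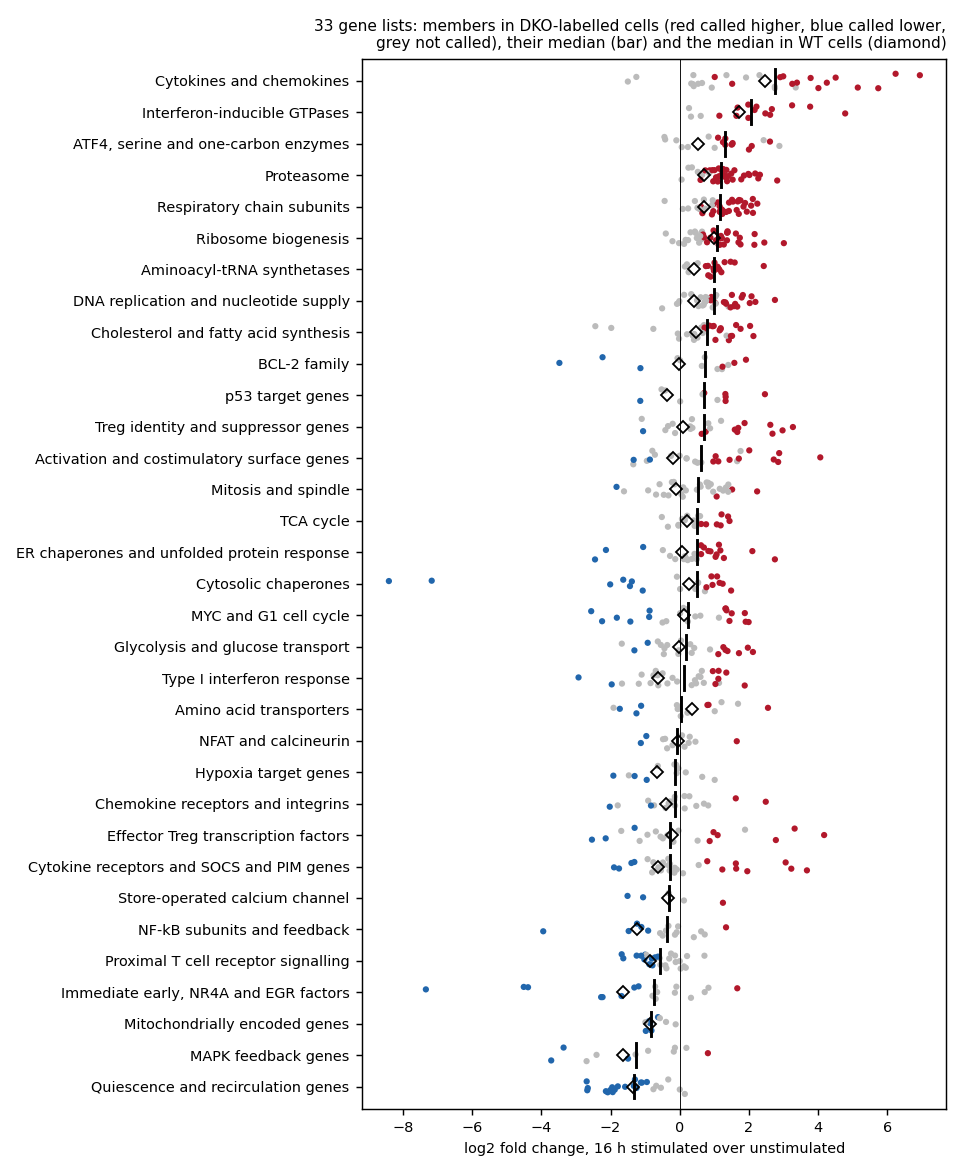
log2 fold change of 16 h stimulated over unstimulated DKO-labelled Treg cells (x axis) for the members of 33 gene lists (rows); each point is 1 gene, red called higher, blue called lower, grey not called, the black bar is the list's median and the diamond its median in WT cells. Cytokines and chemokines (bar at 2.75, or 1.96 with absent genes at 3 reads, which is not drawn) and interferon-inducible GTPases (2.08) have the highest medians. Quiescence genes have the lowest, -1.33. Medians near 0 (store-operated channel, NFAT, NF-κB, effector factors, chemokine receptors, cytokine receptors, amino acid transporters, hypoxia) change sign with the scaling.

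Of 26 proximal T cell receptor signalling genes, 11 were called lower and the other 15 were not called (median -0.57); 4 were called lower with equal totals and 5 without stimulated replicate 1. Dgka, the diacylglycerol kinase gene, had 15489, 13828, 3588 and 6219 normalized counts (log2 fold change -1.63, adjusted p = 0.00189). Ptpn22, a phosphatase gene, had 4516, 6754, 2181 and 1364. The groups were apart in both genes, as in all called genes. Cd3e (log2 fold change -0.30) and Lck (-0.41) were not called.

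Of 12 NFAT and calcineurin genes, 1 was called higher and 2 lower, with a median of -0.07 that was 0.32 with equal totals. Rcan3, a regulator of calcineurin, had 417, 528, 1112 and 1955 normalized counts (log2 fold change 1.65, adjusted p = 0.00585). Nfatc3 (7097, 8716, 3994 and 4061, adjusted p = 0.00377) and the calcineurin subunit gene Ppp3ca (1618, 1953, 618 and 1075, adjusted p = 0.0112) fell, although the call of Ppp3ca was lost without stimulated replicate 1. Nfatc1 had 1418, 1388, 1737 and 1242 normalized counts, and its stimulated values lay on both sides of the unstimulated ones. Rcan1, a known NFAT target, had 51.4, 70.8, 78.6 and 66.7 (log2 fold change 0.26, adjusted p = 0.654).

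Of 18 immediate early genes, 8 were called lower at 16 h, 1 was called higher and the other 9 were not called (median -0.75). Nr4a1, an orphan nuclear receptor gene, had 2346, 6720.5, 869 and 1759 normalized counts (log2 fold change -1.68, adjusted p = 0.0197), a call that was lost without unstimulated replicate 2 or stimulated replicate 1. Nr4a2 had 1256, 5213, 191 and 65 (-4.51, adjusted p = 0.00113). Egr2 rose from 191 and 212 to 765 and 536 normalized counts (1.66, adjusted p = 0.00151), and Egr3 (331, 389, 436 and 464) was not called. Unstimulated replicate 2 held the most Nr4a1 and Nr4a2.

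Of 16 NF-κB genes, 5 were called lower and 1 higher (median -0.36, but 0.03 with equal totals); 9 were called lower without unstimulated replicate 1 and 2 without stimulated replicate 1. Tnfaip3, which encodes the NF-κB inhibitor A20, had 27892, 71529, 3219 and 2607 normalized counts (log2 fold change -3.95, adjusted p = 0.000243), and Nfkbia 1515, 2660.4, 714 and 729 (-1.48, adjusted p = 0.00282). Bcl3 rose from 131 and 164 to 309 and 450.0 (1.34, adjusted p = 0.00997), which was not called without stimulated replicate 2. Of 11 MAPK feedback genes, 3 were called lower and 1 higher, and 7 were called lower without unstimulated replicate 1 and 5 without stimulated replicate 1. Dusp1, a MAPK phosphatase gene, had 3904, 3247, 339 and 354 normalized counts, a 10.3-fold decrease, and Dusp10 2570.1, 13508, 457 and 439.

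Quiescence and recirculation genes formed the list with the largest share of decreases. 17 of 23 were called lower and the other 6 were not called (median -1.33), and between 14 and 20 were called lower with any 1 DKO-labelled library left out. Il7r, the IL-7 receptor gene, had 4194, 2666, 676 and 396 normalized counts (log2 fold change -2.69, adjusted p = 0.000408). Klf2 (1114, 1366, 236 and 538, adjusted p = 0.00693) and its target S1pr1 (4988, 11805, 1274 and 3146, adjusted p = 0.0112), the receptor for exit from lymph nodes, both fell. The call of S1pr1 was lost without unstimulated replicate 2 or stimulated replicate 1. Tob1, an antiproliferative gene (908, 1680.1, 199 and 187), Tsc22d3, which encodes GILZ (963, 1742, 187 and 223), and Tcf7 (4669, 5222, 2188 and 1977) fell as well. Ccr7, the receptor for lymph node entry, had 1405, 6749, 2192 and 2036 normalized counts, and its groups overlapped.

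Surface genes of activation rose more often than they fell. Of 25, 10 were called higher and 2 lower (median 0.62). Tnfrsf9, which encodes 4-1BB, had 363, 353, 2967 and 2334 normalized counts (log2 fold change 2.88, SE 0.18, adjusted p = 4.96e-05). Tnfrsf4, which encodes OX40, had 461, 1177, 4788 and 4929 (2.72, adjusted p = 0.000874), and Icos 1701, 2098, 8479 and 6844 (2.01, adjusted p = 0.000239). Their stimulated libraries were above the highest unstimulated one, as in all genes called higher. Tfrc, the transferrin receptor gene, had 1206, 2475, 5542 and 3971 normalized counts (adjusted p = 0.00786), a call that was lost without stimulated replicate 1. Cd28 fell from 8749 and 17353 to 5366 and 4463 (adjusted p = 0.00714). Cd69, an early activation marker, had 4119.9, 3388, 4521 and 6289 (log2 fold change 0.51, adjusted p = 0.106). The groups of Cd69 did not overlap, but the difference was not called.

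Of 24 Treg identity and suppressor genes, 10 were called higher and 1 lower (median 0.69). Il2ra, which encodes CD25, had 7021, 6821, 37216 and 48629 normalized counts, a 6.15-fold rise (adjusted p = 0.000134). Socs2 had 436, 284, 2809 and 4149.5 (9.67-fold) and Gpr83 1043, 564, 3867 and 6278 (6.42-fold). Il10 rose from 50.3 and 56.1 to 253 and 104 normalized counts (adjusted p = 0.0112), and Gzmb, the granzyme B gene, from 156 and 115 to 2491 and 450.0 (adjusted p = 0.00841). Stimulated replicate 1 was the higher for Il10 and Gzmb and the lower for Il2ra, Socs2 and Gpr83. Nrp1 (2078, 1625, 690.0 and 1126) fell, a call lost without stimulated replicate 1, and Ctla4 (6338, 17333, 9261 and 9849) overlapped between the groups.

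Of 20 transcription factors of effector Treg cells, 6 were called higher and 3 lower, with a median of -0.27 that was 0.12 with equal totals, and without stimulated replicate 1 the counts were 3 and 5. Irf4 had 862, 1029.7, 13241 and 6722 normalized counts (log2 fold change 3.32, SE 0.27, adjusted p = 0.000186). Tbx21, which encodes T-bet, had 34.6, 6.68, 438 and 203 (4.18, adjusted p = 0.00177), and Irf8 438, 214, 2666 and 1667 (2.78, adjusted p = 0.000675). Batf (adjusted p = 0.0241) and Prdm1, which encodes Blimp-1 (adjusted p = 0.0343), rose 1.97-fold and 2.14-fold, and both calls were lost without unstimulated replicate 2 or stimulated replicate 1. Rora had 2412, 10125, 983 and 735 normalized counts (log2 fold change -2.54, adjusted p = 0.00565), and Bcl6, the follicular T cell factor, 561, 1393, 237 and 168 (-2.14, adjusted p = 0.00445). Bhlhe40 fell as well (adjusted p = 0.047), a call lost without unstimulated replicate 2 or stimulated replicate 2. Gata3 (784, 1008, 799 and 603) was not called.

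Cytokines and chemokines had a median of 2.75, or 1.96 with genes absent from both unstimulated libraries taken at 3 reads. It was above that of the interferon-inducible GTPases, 2.08, but at this bound below it, as it was without unstimulated replicate 2 (1.78 against 2.23) and without stimulated replicate 1 (1.42 against 2.26). Of 29 tested, 14 were called higher and the other 15 were not called. The count was 9 without unstimulated replicate 2, 8 without stimulated replicate 1 and 19 without stimulated replicate 2. Lta, which encodes lymphotoxin, had 327, 184, 1999 and 1706 normalized counts (log2 fold change 2.91, adjusted p = 0.000243), and Tnf 415, 295, 1076 and 936 (1.52, adjusted p = 0.00177). Il13 had 1 read in the unstimulated libraries and 230 in the stimulated ones, a ratio of 160.2 (95% counting interval 28.5 to 6356). Ifng had 142, 25.4, 1201 and 198 normalized counts (adjusted p = 0.035), Ccl3 102, 29.4, 1189 and 287 (adjusted p = 0.0115) and Xcl1 49.3, 12, 795 and 155 (adjusted p = 0.0215). The call of each was lost without unstimulated replicate 2 or stimulated replicate 1. Ccl3 and Xcl1 were chosen for mention after their values were seen. For Il2, Ifng, Il13, Ccl3, Xcl1 and Gzmb, stimulated replicate 1 lay far above stimulated replicate 2. Stimulated replicate 1 also held 2281 summed normalized counts of CD8 T and NK cell markers against 569, and the part of these cells in the cytokine levels was not tested.

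Of 29 cytokine receptor, SOCS and PIM genes, 8 were called higher and 4 lower, the latter close to the share among all genes (median -0.29, but 0.10 with equal totals), and 13 were called lower without unstimulated replicate 1. Il12rb1 had 103, 28.1, 822 and 599 normalized counts (12.8-fold), and Il12rb2 106, 131, 1278 and 768 (8.36-fold), which together encode the IL-12 receptor. Socs1 had 39.9, 84.1, 489 and 621 (9.36-fold) and Cish, a STAT5 target, 1277, 1804, 4169 and 5319 (3.1-fold). Socs3 (878, 1648, 315 and 328), Jak1 (15038, 25418, 7502 and 8273) and Tgfbr2 (3071, 6053, 1534 and 1748), a TGFβ receptor gene, fell. Pim1 (857, 1731, 1032 and 1157) overlapped between the groups. Of 19 chemokine receptor and integrin genes, 2 were called higher and 2 lower. Ccr8, a receptor of tissue Treg cells that binds CCL1, had 35.6, 65.4, 407 and 187 normalized counts (log2 fold change 2.49, adjusted p = 0.00216), and Ccr4 633, 269.8, 1784 and 909. Cxcr4 had 440.4, 1374, 228 and 159.6 (-2.02, adjusted p = 0.00893), and the gut-homing integrin gene Itgb7 1725, 1497, 813 and 1003. The calls of Ccr4, Cxcr4 and Itgb7 were each lost without at least 1 stimulated library.

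Interferon-inducible GTPases rose together. Of 16 GBP and IRG family genes, which act against intracellular microbes, 13 were called higher and the other 3 were not called (median 2.08), and 12 to 14 were called higher with any 1 DKO-labelled library left out. Irgm1 had 508, 988, 4207 and 4805 normalized counts (log2 fold change 2.66, adjusted p = 0.000377). Members such as Tgtp1 and Tgtp2 are near-identical copies, so their levels are uncertain.

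The letters GAAANNGAAA were also found in 9 of 21 promoter windows of type I interferon response genes (42.9%). Of 28 type I interferon response genes, 6 were called higher and 2 lower (median 0.14, between 0.02 and 0.52 under the other scalings); without stimulated replicate 2 the counts were 3 and 4, and without unstimulated replicate 1 they were 7 and 0. Bst2, which encodes tetherin, had 128, 120.2, 382 and 551 normalized counts (adjusted p = 0.00136), Zbp1, a nucleic acid sensor gene, 1759.5, 1421, 3721 and 4355 (adjusted p = 0.00158) and Stat2 1277, 1345, 2227 and 2910.1 (adjusted p = 0.00652). Ifit1 (576, 367, 536 and 845) and Irf7 (499, 542, 347 and 476) were not called. Rsad2, which encodes viperin, fell from 133 and 108 to 4.76 and 43.1, and Cmpk2, its neighbour, from 152 and 77.5 to 15.9 and 45.6, calls that were lost without unstimulated replicate 1 or stimulated replicate 1.

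Genes of cell growth rose in broad groups. Of 37 proteasome genes, 31 were called higher and the other 6 were not called (median 1.20). Psme2, a subunit of the interferon-inducible PA28 activator, had 414, 286, 2047 and 2894 normalized counts (7.06-fold), Psma5 104, 144, 644 and 587 (4.99-fold) and Psma1 280.0, 338, 1498 and 1308 (4.54-fold). Of 42 nuclear-encoded respiratory chain subunits, 29 were called higher and the other 13 were not called (median 1.16). Ndufb6, of complex I, had 35.6, 28.1, 168 and 140.2 normalized counts (4.74-fold), and Cox7a2, of complex IV, 209.7, 256, 993 and 1027 (4.34-fold). Atp5b, of the ATP synthase, had 7835, 8439, 12056 and 11169.5, and its 1.43-fold change was below the fold threshold. With any 1 DKO-labelled library left out, 25 to 30 proteasome and 25 to 31 respiratory chain genes were called higher.

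Mitochondrially encoded genes did not rise with them. Of 9 tested, 5 were called lower and the other 4 were not called (median -0.82), 1 was called lower without stimulated replicate 2, and with equal totals, where the median was -0.43, the count was 0 by limma (6 by DESeq2, which scales by size factors). mt-Nd4, a complex I subunit, had 28822, 20473, 12246 and 12378 normalized counts (log2 fold change -0.98, adjusted p = 0.00693), and mt-Cytb 77326, 53972, 35106 and 33909 (-0.90, adjusted p = 0.0114). The mitochondrial genome supplied 29.5% and 19.96% of reads in unstimulated and 19.8% and 15.1% in stimulated libraries. Nuclear copies of mitochondrial sequence can take such reads, so these levels are uncertain. Of 21 TCA cycle genes, 7 were called higher and the other 14 were not called (median 0.50); 4 were called higher without stimulated replicate 1. Suclg1 had 191, 192, 511 and 532 normalized counts (2.71-fold), Sdhc 213, 176, 524 and 501 (2.64-fold) and Fh1 275, 212, 593 and 528 (2.31-fold).

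Of 22 glycolysis genes, 7 were called higher and 2 lower (median 0.17), and 4 and 3 without stimulated replicate 1. Aldoa, the aldolase gene, had 588, 450.1, 2285 and 1783 normalized counts (3.92-fold) and Ldha 3316, 2136, 7672 and 5312 (2.4-fold). The glucose transporter gene Slc2a3 fell from 1552 and 1402 to 475 and 744 (adjusted p = 0.00417), and Slc2a1 (744, 1509, 858 and 793) overlapped between the groups. Without unstimulated replicate 1, 5 glycolysis genes were called lower. Of 30 cholesterol and fatty acid synthesis genes, 16 were called higher and the other 14 were not called (median 0.79), with 10 and 9 higher without stimulated replicate 1 and 2. Sqle, the squalene epoxidase gene, had 319.8, 342, 958 and 1100.1 normalized counts (3.1-fold), Fdps 22, 22.7, 88.1 and 117 (4.38-fold) and Hmgcs1 448, 781, 1552 and 1619 (2.68-fold). Of 12 hypoxia target genes, 3 were called lower, among them Vegfa (46.1, 122, 28.6 and 12.7) and Kdm3a (3104, 4967, 1945 and 2109.8), and 1 without stimulated replicate 2.

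Genes for protein synthesis rose as well. Of 40 ribosome biogenesis genes, 26 were called higher and the other 14 were not called (median 1.09), and 15 were called higher without stimulated replicate 1. The H/ACA ribonucleoprotein genes Nhp2 (106, 107, 1089 and 686, 8.06-fold), Gar1 (207, 220.4, 1239.5 and 1099, 5.45-fold) and Nop10 (156, 142, 659.9 and 675, 4.47-fold) rose together. The abundant nucleolar genes Ncl (35283, 43591, 38129.8 and 23085) and Nop56 (2551, 2932, 3139 and 2318) were not called, and their groups overlapped. Of 20 aminoacyl-tRNA synthetase genes, 16 were called higher and the other 4 were not called (median 1.00), with 10 without stimulated replicate 1. Wars, which is also interferon-inducible, had 304, 228, 1363 and 1489 normalized counts (5.39-fold), and Kars 571, 741, 2199 and 1748 (3.01-fold). Of 19 ATF4, serine and one-carbon genes, 10 were called higher and the other 9 were not called (median 1.32). Shmt2 had 208, 192, 1028 and 1459 normalized counts (6.1-fold), Psat1 395, 341, 1609.6 and 1507 (4.24-fold) and Asns, the asparagine synthetase gene, 62.9, 29.4, 185 and 166 (4-fold). Atf4 itself (1858, 3240.0, 1749 and 1921) was not called. Of 15 amino acid transporter genes, 3 were called higher, with Slc1a4 (23.1, 32, 133 and 203) first, and 3 lower, among them Slc3a2 (1627, 2057, 958 and 743) and Slc43a2 (1024, 1449, 333 and 403).

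Of 25 ER chaperone and unfolded protein response genes, 12 were called higher and 3 lower, the latter at the 12% found among all genes (median 0.49), with 6 and 7 higher without stimulated replicate 1 and 2. Sdf2l1 had 74.5, 52.1, 471 and 384 normalized counts (6.74-fold), the translocon gene Sec61b 110.1, 103, 468 and 451 (4.29-fold) and Pdia6, a protein disulfide isomerase gene, 653, 652, 1447 and 1504 (2.26-fold). Hspa5, which encodes the chaperone BiP, instead fell from 20126 and 29199 to 11738 and 11569 (log2 fold change -1.06, adjusted p = 0.00513), with Dnajb9 (1152, 1537, 305 and 301) and Eif2ak3, which encodes PERK (780.1, 2813, 257 and 285). The promoters of Hspa5 and Pdia6 are shown because they moved in opposite directions while both hold the ER stress element, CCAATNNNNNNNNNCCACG on either strand, within 250 bases of the start. It was found in 8 of 22 windows of this list (36.4%) and in 0.142% of the 9882 windows of tested genes. Its share was 0.195% among windows of genes called higher and 0.174% among those of genes called lower. Sequences are from RefSeq on GRCm38.p6 (chr2:34771840-34772089, plus strand for Hspa5 and chr12:17266339-17266588, plus strand for Pdia6), 5′ to 3′ along the gene with the match in capitals.
Hspa5: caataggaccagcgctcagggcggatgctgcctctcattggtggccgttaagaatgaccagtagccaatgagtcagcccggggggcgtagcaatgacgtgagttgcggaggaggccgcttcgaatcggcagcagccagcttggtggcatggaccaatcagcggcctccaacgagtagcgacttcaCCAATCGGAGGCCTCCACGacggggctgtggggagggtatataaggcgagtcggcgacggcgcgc
Pdia6: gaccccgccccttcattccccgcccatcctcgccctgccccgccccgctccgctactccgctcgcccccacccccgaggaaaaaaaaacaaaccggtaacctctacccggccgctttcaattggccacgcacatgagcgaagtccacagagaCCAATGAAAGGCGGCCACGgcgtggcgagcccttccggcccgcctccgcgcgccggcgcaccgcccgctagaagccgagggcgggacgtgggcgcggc
Of 20 genes on the cytosolic chaperone list, 7 were called higher and 7 lower, and 4 were called higher without stimulated replicate 1. The chaperonin genes Cct6a (2348, 2441, 6846 and 4683) and Cct5 (2122, 2996, 6418 and 4898) rose. So did Hspd1 (1354, 1719, 6279 and 2909), which is on this list although it encodes a mitochondrial chaperonin. Dnaja1 (6679, 6353, 1923 and 2293) fell with Hspa1a and Hspa1b, and the constitutive Hspa8 (4462, 5018, 5485 and 4147) and Hsp90ab1 were not called.

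Cell cycle genes were read in 3 lists. Of 23 MYC and G1 genes, 8 were called higher and 6 lower. Myc had 1573, 892, 4709.6 and 4725 normalized counts (log2 fold change 1.99, adjusted p = 0.000767), Cdk4 447, 239, 1335 and 1130.5 (1.91, adjusted p = 0.00177) and Ccnd2, a D cyclin gene, 6330.3, 4644, 15736 and 13730.1 (1.44, adjusted p = 0.00105). Mxd4, a MAX-binding antagonist of MYC, fell (1346, 2473, 312 and 306, adjusted p = 0.000373), as did the inhibitor gene Cdkn2d (875, 964, 218 and 171, adjusted p = 0.000767). Of 39 DNA replication and nucleotide supply genes, 17 were called higher and the other 22 were not called (median 0.99), with 8 without stimulated replicate 1 and 26 without stimulated replicate 2. Mcm5 had 220.2, 163, 949 and 632 normalized counts (4.07-fold), Mcm10 66.1, 24, 399 and 190.0 (6.74-fold) and Dut, the dUTPase gene, 204, 174, 1130.0 and 658 (4.56-fold). Pcna (1332, 1446, 1156 and 822) was not called.

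Of 30 mitosis and spindle genes, 3 were called higher and 1 lower (median 0.54). Cdk1 (47.2, 12, 208 and 65.8, adjusted p = 0.0284), Ccnb1 (33.5, 13.4, 76.2 and 51.5, adjusted p = 0.0423) and Bub1b (219, 94.8, 326 and 283, adjusted p = 0.0498) rose, and each call was lost without unstimulated replicate 2 or stimulated replicate 1. Without either of these libraries the count called higher was 0 by limma and the median was -0.17 and -0.09, and without stimulated replicate 1 the count called lower was 5. Without unstimulated replicate 1, 12 were called higher (median 1.20), without stimulated replicate 2 the number was 5, and DESeq2 called 6 with all libraries. Mki67, which marks cycling cells, had 4924, 1399.7, 2925 and 913 normalized counts. Replicate 1 was the higher in both conditions for Mki67 and Cdk1, as it was for the marker sums of other cell types, and the part of other cells was not tested. Cenpa, a centromere histone gene, had 967, 1481, 304 and 372 (log2 fold change -1.83, adjusted p = 0.00165).

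Of 13 BCL-2 family genes, 3 were called higher and 3 lower. Bcl2l1, which encodes the antiapoptotic BCL-XL, had 197, 333, 814 and 724 normalized counts (2.99-fold, adjusted p = 0.00282), Bax, a death effector gene, 82.8, 80.1, 289.8 and 332 (3.77-fold) and Bak1 115, 82.8, 283 and 190.0 (2.36-fold). The BH3-only genes Bcl2l11, which encodes BIM (2394, 6082, 1720.0 and 1753), Bmf (29.4, 30.7, 0 and 6.75) and Pmaip1, which encodes NOXA (515, 656, 156 and 97.1), fell. Bcl2 (7569.7, 6538, 6237 and 8053) overlapped between the groups. Of 11 p53 target genes, 5 were called higher and 1 lower, with Zmat3 (638, 473, 1440.5 and 1323) and Ei24 (258, 214, 594 and 587) higher and Sesn1 (1567, 1955, 666 and 945) lower. Without unstimulated replicate 2, 3 of them were called higher, without stimulated replicate 1, 2 were, and the calls of Bak1, Bcl2l11 and Sesn1 were lost. Without unstimulated replicate 1, 4 p53 targets were called lower. Without unstimulated replicate 2 the call of Bmf was lost, and 1 BCL-2 family gene was called lower.

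The WT response was used to see where the DKO-labelled response differs. In WT cells 1580 genes were called higher (10.2% of 15419) and 2013 lower (13.1%). The 2 responses share no library, but their stimulated libraries shared lane 1 and their unstimulated libraries lane 4. Of the genes called higher in DKO-labelled cells, 1051 were also called higher in WT cells, 52.6% of the DKO list and 66.5% of the WT list. Of those called lower, 1168 were shared, 63.0% of the DKO list and 58.0% of the WT list. The sign was the same in WT cells for 96.4% of the genes called higher and 96.3% of those called lower, against 50.2% and 49.7% of all genes, and across the 15419 genes the Pearson correlation of the log2 fold changes was 0.68, a description only, since genes are not independent replicates.

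**Figure D5:**
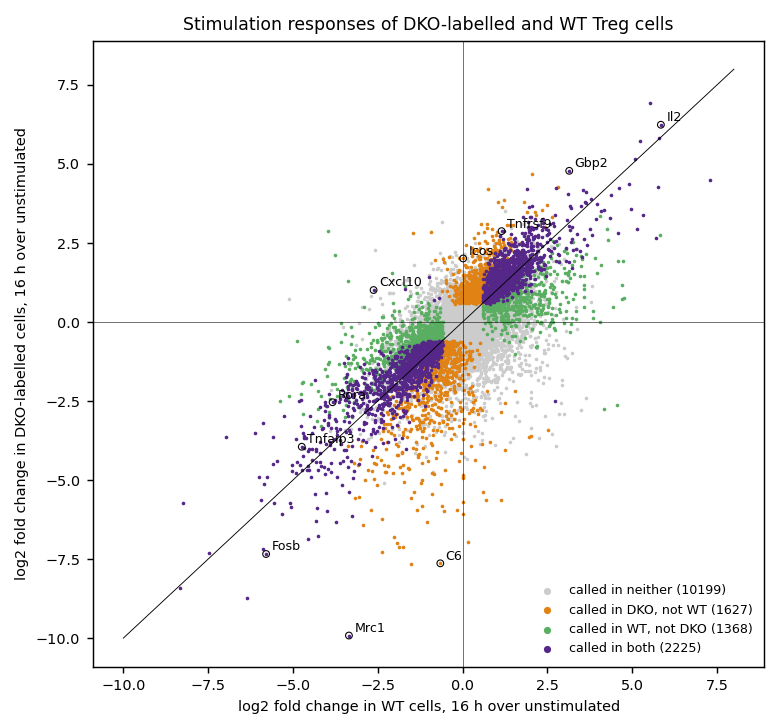
log2 fold change after 16 h in DKO-labelled cells (y axis) against that in WT cells (x axis); each point is 1 of 15419 genes, coloured by whether it was called in neither (10199), in DKO and not WT (1627), in WT and not DKO (1368) or in both (2225). Most genes called in both lie in the lower left and upper right parts of the plot.

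The test of the difference itself, the interaction of genotype and stimulation, called 0 genes by limma and 0 by edgeR. At an unadjusted p under 0.05 and 1.5-fold, 704 genes had the more positive change in DKO-labelled cells and 543 the more negative one, and DESeq2 called 50 genes, 37 and 13. Without unstimulated DKO-labelled replicate 2 limma called 196 genes, 179 of them more positive. A gene called in 1 genotype and not in the other is therefore not shown to differ. 6 genes were called in opposite directions, which singled them out for mention after values were seen. Cd83, an activation marker, had 308, 455, 959 and 619.7 normalized counts in DKO-labelled libraries but 2989 and 2668 in unstimulated and 1074 and 697 in stimulated WT libraries (interaction log2 difference 2.74, limma adjusted p = 0.17). Cxcl10, a chemokine gene, had 186, 228, 567 and 306 against 1581, 1557, 316 and 204 (3.63, adjusted p = 0.11), and Stx11, a SNARE gene of granule release, 142, 191, 533 and 368 against 1925, 1851, 935 and 959 (2.42, adjusted p = 0.16). In these 3 genes the unstimulated WT libraries were the highest of all and the unstimulated DKO-labelled ones the lowest or near the lowest. Map3k8 and Trat1 were also higher in DKO-labelled and lower in WT cells, and Col14a1 the reverse (adjusted p = 0.42, 0.43 and 0.51).

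Icos and Tnfrsf9 started lower in DKO-labelled than in WT cells. Icos had 14389 and 13756 normalized counts in unstimulated and 13802 and 14688 in stimulated WT libraries, so that its 4.03-fold rise in DKO-labelled cells started from 1701 and 2098 (interaction log2 difference 1.99, limma adjusted p = 0.11). Tnfrsf9 rose in both genotypes, from 3118 and 2953 to 6435 and 7068 in WT cells and from 363 and 353 to 2967 and 2334 in DKO-labelled cells (1.72, adjusted p = 0.17). For Gbp2 the stimulated libraries were the ones that stood apart, with 5504 and 6086 in WT against 13422 and 19825 in DKO-labelled cells (1.64, adjusted p = 0.33). Il2 and Myc changed in the same direction in both genotypes. Il2 had 17.3 and 17.7 normalized counts in unstimulated and 1469.9 and 771 in stimulated WT libraries (interaction log2 difference 0.39, limma adjusted p = 0.95), and Myc 1128, 1077, 4677 and 5418 (-0.20, adjusted p = 0.90).

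In many lists more genes were called higher in DKO-labelled than in WT cells. The counts were 31 against 17 proteasome, 29 against 18 respiratory chain, 16 against 6 tRNA synthetase and 17 against 5 DNA replication genes. In that order the medians were 1.20 and 0.69, 1.16 and 0.71, 1.00 and 0.41, and 0.99 and 0.43. ER chaperone genes had 12 against 2, cholesterol and fatty acid synthesis genes 16 against 8 and TCA cycle genes 7 against 2. Activation surface genes and Treg identity genes each had 10 against 5. The reverse was seen for immediate early genes (1 against 2) and neutrophil and erythroid markers (0 against 1). Ribosome biogenesis genes differed little, with 26 against 23 called higher and medians of 1.09 and 0.99. Psma1, for example, had 632 and 561 normalized counts in WT libraries before stimulation against 280.0 and 338 in DKO-labelled ones, and 1432 and 1267 against 1498 and 1308 after stimulation (interaction log2 difference 1.01, adjusted p = 0.56). The GBP and IRG list had 13 genes called higher against 11, cytokines 14 against 14, and quiescence genes 17 called lower against 20. Type I interferon response genes were called lower in 13 cases in WT cells against 2 in DKO-labelled cells. These differences between counts were not tested.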

How the data were processed

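The 8 RNA sequencing libraries of Treg cells fall by their labels into 4 groups of 2 (genotype by stimulation). The authors deposited a signal for each gene: its reads scaled by the library's size factor. The methods name Bowtie, NCBIM37, unique reads, Picard and HTSeq, whereas the submitters' processing notes name STAR 2.7 and mm10, so no gene positions of the files' build are given, and coordinates are those of the RefSeq promoter windows. Whole reads were recovered from 100% of values (tolerance 0.02 normalized counts). log2(value + 1) of genes with a mean of at least 10 was analysed in R 4.3.3 by the trended eBayes test of limma 3.58.1, with 1 spread for the 4 groups, 2-sided tests and Benjamini-Hochberg adjustment within each contrast. The methods name DESeq2, which here is an alternative because the values were normalized. Alternatives were edgeR 4.0.16 and DESeq2 1.42.0 on recovered reads, pseudocounts of 0.1 and 5, other filters, scalings, thresholds and sample sets, a replicate block, and each library left out. Scripts were tested on simulated data.

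Named genes were the 15 in each direction with the largest smallest difference over the 4 pairs of stimulated and unstimulated libraries, among called genes reaching 100 normalized counts, and in each list the reference genes and up to 3 called members per direction, of which 3 genes are not reported here. The members, lists and tests were chosen with earlier results of these data known. Promoter windows were read from RefSeq tables by symbol, the first window per gene. Exon overlaps were looked up in a GENCODE annotation of NCBIM37, which had no entry for Stum and Dnal1.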

Additional observations from a re-analysis of the deposited data

Results flagged for a closer look

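Some results moved one way in every DKO-labelled library and the other way in every WT library. Il10 rose in DKO-labelled cells by a log2 fold change of 1.59, from 50.3 and 56.1 to 253 and 104 normalized counts, and had 885 and 923 in unstimulated and 779 and 870.1 in stimulated WT libraries (interaction by limma, adjusted p = 0.56). Ifit3, an interferon-induced gene, had a log2 fold change of 1.14 in DKO-labelled cells, where it was not called, and fell by 1.69 on the log2 scale in WT cells (interaction adjusted p = 0.51). Nars, the asparaginyl-tRNA synthetase gene, rose by 0.89, from 1773 and 2447 to 3995 and 3741, and had 3687, 3593, 3322 and 3469 in WT libraries (adjusted p = 0.56).

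Ccng1, a p53 target, was called higher with a log2 fold change of 0.71 (adjusted p of the interaction 0.57). The changes of Egln3 (log2 fold change 1.01), Cd69 (0.51) and Zap70 (0.21) were not called in DKO-labelled cells, and their interactions had adjusted p-values of 0.56, 0.56 and 0.57. None of these 7 interactions was called by limma. Egln3 had 104, 215, 313 and 292 normalized counts in DKO-labelled libraries against 505, 431, 416 and 239.9 in WT libraries.

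The medians of 3 gene lists were positive in DKO-labelled and negative in WT cells. Activation and costimulatory surface genes had a median log2 fold change of 0.62 against -0.19, glycolysis genes 0.17 against -0.01, and type I interferon response genes 0.14 against -0.62. The differences between these medians were not tested.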

How the results depend on the processing

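Of 241 named genes, none of the 194 called ones reversed under any alternative run, and between 198 and 240 kept both direction and call. Leaving out 1 library could not reverse a called gene, since its groups lay apart. With equal totals 3791 genes were called higher and 1077 lower in DKO-labelled cells, and 4258 and 974 in WT cells (2913 and 1208 without mitochondrially encoded genes). A fit to the 4 DKO-labelled libraries alone has fewer samples and takes the spread from these libraries only. There limma called 880 higher and 872 lower and DESeq2 1253 higher. With 1 library left out, 1196 to 2125 genes were called higher and 1324 to 2104 lower in DKO-labelled cells, the fewest called higher without stimulated replicate 1. In WT cells the ranges were 344 to 505 and 580 to 843, and each of the 4 WT libraries moved both counts by over 1.5 times. At an unadjusted p, 2565 genes were called higher in WT cells. The interaction count of 0 was 50 by DESeq2, 1247 at an unadjusted p, and 0 to 196 with 1 library left out, with 196 without unstimulated replicate 2 and 1 without stimulated replicate 1. Where no cause is named, the cause was not tested.

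With the replicate block, a term for the replicate number of the DKO-labelled libraries, 2412 genes were called higher, 2442 lower and 11 for the interaction. Deviations of same-numbered libraries correlated at 0.26 across genes, but with 2 pairs and no label of a shared batch the numbers were not taken as pairs. No named gene lost its call under the block.

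The genes that reversed were not called. With equal totals, the log2 fold change became 0.0701 for Stim2, 0.25 for Nfkb1, 0.26 for Ctla4, 0.0323 for Gata3, 0.0573 for Cxcr3, 0.23 for Pim1, 0.0865 for Cd3e, 0.25 for Spry1, 0.0285 for Slc2a1, 0.37 for Nop56, 0.31 for Hsp90ab1, 0.0343 for Irf7 and 0.27 for Bnip3. Without mitochondrially encoded genes in the totals it became 0.12 for Nfkb1, 0.12 for Ctla4, 0.10 for Pim1, 0.11 for Spry1, 0.24 for Nop56, 0.17 for Hsp90ab1 and 0.14 for Bnip3. With equal upper quartiles it became -0.0464 for Nfatc1, -0.10 for Hspa8 and -0.10 for Bcl2. With quantile normalization it became 0.32 for Nfkb1, 0.37 for Ctla4, 0.0747 for Ncl, 0.20 for Nop56, 0.54 for Hsp90ab1 and 0.31 for Bnip3. DESeq2 gave -0.0025 for Bcl2 on 8 libraries and -0.0008 on 4.

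With 1 DKO-labelled library left out, the log2 fold change ranged from -0.39 to 0.63 for Orai1, -0.18 to 0.31 for Nfatc1, -0.79 to 0.52 for Nfkb1, -0.0368 to 0.66 for Foxp3, -0.86 to 0.59 for Ctla4, -1.67 to 0.59 for Ccr7, -1.67 to 1.03 for Cxcr3, -0.66 to 0.35 for Pim1, -0.64 to 0.37 for Spry1, -1.59 to 0.22 for Mki67, -0.87 to 0.15 for Slc2a1, -0.24 to 0.20 for Nop56, -0.19 to 0.21 for Hspa8, -0.26 to 0.10 for Hsp90ab1, -0.17 to 0.20 for Bcl2, -0.60 to 0.40 for Bnip3, -0.10 to 1.67 for Cd8a and -2.18 to 0.44 for S100a8.

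Depth limits genes near 3 reads, 2.38 to 4.01 normalized counts in the DKO-labelled libraries. Lane, culture and stimulation cannot be told apart. Each group held 2 pools, so a single library could decide a call.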
